A study of Mus musculus with 6 samples.

Results

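Hamp, Hamp2, Bmp6, Id1, Smad7, Tfrc, Trf, Fth1, Mt1 and Mt2 are 10 genes of hepcidin signaling, iron handling and metal binding, measured here in mouse liver. They were taken as every non-control probe on the array whose RefSeq name belongs to one of these genes, which gave 13 probes for 10 of the 37074 genes on the array. All 13 probes were well above background on all 6 arrays, so all 10 genes were among the 22323 genes tested. The samples were livers of male L1-Tg mice, strain B6;D2-Tg(APOE-NPC1L1)20Lqyu/J, and of male WT littermates, with 3 arrays per genotype. L1-Tg mice were hemizygous for human NPC1L1, a cholesterol transporter that the APOE promoter drives in hepatocytes, and came from a backcross to C57BL/6J of 8 generations or more. Both groups received a control-fat diet (CFD) and, by the study's methods, were sampled without fasting, and the study used mice of 6 to 12 weeks of age. Each array held pooled RNA of 2 or 3 mice, so the spread given below is one between pools, and nothing states how far pools of one genotype were independent in litter or cage. On the single slide, scanned once, WT filled row 1 and L1-Tg row 2, so slide row and genotype cannot be told apart.

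Hepcidin, the peptide made from Hamp, is secreted by hepatocytes and closes the iron exporter ferroportin, which keeps iron inside gut cells and macrophages. Its transcription rises with BMP6, a ligand made largely by liver endothelial cells that acts through BMP receptors and SMAD proteins, and with IL-6, which acts through STAT3. Transferrin (Trf) carries iron in plasma, the transferrin receptor (Tfrc) takes it up and ferritin heavy chain (Fth1) stores it, with Tfrc and Fth1 controlled to a large extent after transcription by iron-regulatory proteins. The metallothioneins Mt1 and Mt2 are small cysteine-rich proteins that bind zinc and copper and are known for strong induction in liver by metals, glucocorticoid and inflammation.

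Hamp and Hamp2 are neighboring paralogs on chromosome 7. Their upstream sequences are shown because both known inputs of Hamp, BMP and IL-6, act upstream of that gene. Whether these inputs act upstream of Hamp2 was not tested. The RefSeq table of promoters (GRCm38.p6) held an entry for 7 of the 10 genes. The 250 bases before the annotated start are given 5′ to 3′ on the minus strand at chr7:30944030-30944279 for Hamp and at chr7:30924182-30924431 for Hamp2. Capitals mark the BMP response hexamer GGCGCC of Hamp with the hexamer aligned to it in Hamp2, and the STAT motif TTCNNNGAA in both.
Hamp: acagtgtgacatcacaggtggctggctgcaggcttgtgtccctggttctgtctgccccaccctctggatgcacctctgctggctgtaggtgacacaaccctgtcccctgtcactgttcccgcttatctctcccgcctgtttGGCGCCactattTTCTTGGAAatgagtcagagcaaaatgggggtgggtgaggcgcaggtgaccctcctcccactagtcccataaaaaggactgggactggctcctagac
Hamp2: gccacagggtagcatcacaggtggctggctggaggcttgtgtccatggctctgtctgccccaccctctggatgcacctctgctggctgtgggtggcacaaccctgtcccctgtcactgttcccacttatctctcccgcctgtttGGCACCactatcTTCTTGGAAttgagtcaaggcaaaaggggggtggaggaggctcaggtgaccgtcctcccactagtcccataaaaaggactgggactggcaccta
Aligned end to end, the windows had 227 identical bases, 20 mismatches and 6 gaps, an identity of 89.7%. Both carried the STAT motif, whose first base lay at position -97 from the start of Hamp and -94 from that of Hamp2. The hexamer GGCGCC began at position -109 of Hamp, and the aligned hexamer of Hamp2 differed from it by G145A, counted from 1 at the 5′ end of the Hamp window. Both strands were searched, and GGCGCC was present in 9.59% and TTCNNNGAA in 7.02% of 32851 mouse promoter windows of this length. Of the other 5 genes with an entry, the windows held no TTCNNNGAA, and 1 window of Tfrc held GGCGCC. These matches describe letters only. Whether the Hamp and Hamp2 probes share signal from each other's mRNA was not tested.

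None of the 10 genes differed between L1-Tg and WT livers at an adjusted p under 0.05 in limma. Their intervals below hold for single genes, without adjustment over the 22323 genes tested. They give the differences compatible with each gene's pools, not the size of difference that would have been called. The interval of Smad7, a ratio of 1.02 to 1.52, left out equal levels, yet Smad7 was not called. Across the array 29 of 22323 genes, 0.13%, were called, 0.121% higher and 0.00896% lower in L1-Tg mice. At an unadjusted p under 0.05 there was 1 of the 10 genes, Smad7, against 8.87% of all genes, 4.51% higher and 4.37% lower, and the test without moderated variances called 0 of the 10 and 0 of all genes after adjustment. Smad7 was also the only one whose pools did not overlap between genotypes, where 15.9% of all genes did not overlap, 7.21% with L1-Tg pools higher and 8.7% with L1-Tg pools lower. Of the 10 differences 4 were above 0 and 6 below, with a median of -0.02 beside a median of -0.03 over all genes, and 42.9% of all genes were above 0. The signs of the smallest differences depended on the scaling: 8 of the 10 were above 0 when the array median replaced the 75th percentile, a change that moved the median of all genes by 0.11. All values below are log2 signals relative to the 75th percentile of the array, so 0 is the level of that percentile, and levels of different genes are not comparable because each probe has its own brightness.

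**Figure D1:**
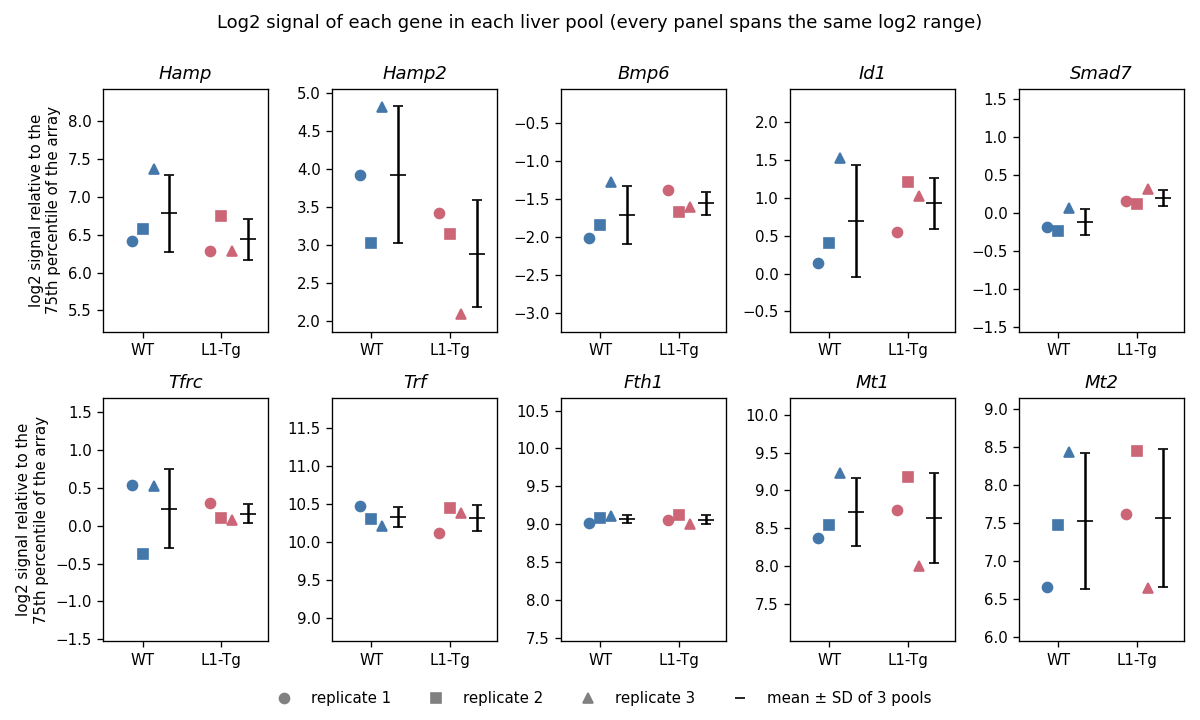
Each panel plots the log2 signal of 1 gene, relative to the 75th percentile of the array, in the 3 WT pools (blue) and the 3 L1-Tg pools (red), with marker shapes for the replicate numbers and bars for mean ± SD. Every panel spans the same log2 range: pools lay far apart for Hamp2 and Mt2, close together for Fth1, and without overlap of the genotypes for Smad7 alone.

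Hamp, the hepcidin gene, read 6.28, 6.75 and 6.28 in L1-Tg pools 1, 2 and 3 and 6.41, 6.57 and 7.36 in WT pools 1, 2 and 3. WT pool 3 stood above the other pools and the remaining 5 overlapped. The means were 6.44 ± 0.27 and 6.78 ± 0.51 (SD, n = 3 pools each), a ratio of L1-Tg to WT of 0.788 with a 95% interval of 0.497 to 1.25 (limma, adjusted p = 0.692). Without WT pool 3 the difference was -0.05 in place of -0.34.

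Hamp2, the second mouse hepcidin gene, whose peptide is not known to act on iron as that of Hamp does, read 3.42, 3.14 and 2.09 in L1-Tg pools and 3.92, 3.02 and 4.82 in WT pools. L1-Tg pool 3 was the lowest, WT pool 3 the highest, and the groups overlapped through WT pool 2. Its means of 2.88 ± 0.70 and 3.92 ± 0.90 gave the difference furthest from 0 of the 10, a ratio of 0.487 with an interval of 0.201 to 1.18 (unadjusted p = 0.0951, adjusted p = 0.605). The interval holds both no difference and a level in L1-Tg mice of 0.201 times that in WT mice. Leaving out each pool in turn moved the difference of Hamp2 between -1.49 and -0.59, below 0 each time.

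Bmp6, the ligand upstream of hepcidin, read -1.38, -1.67 and -1.61 in L1-Tg pools and -2.01, -1.84 and -1.28 in WT pools. The L1-Tg pools lay inside the range of the WT pools, and the ratio was 1.11 (0.791 to 1.57, adjusted p = 0.808). Id1, a transcriptional regulator induced by BMP and SMAD signaling, read 0.55, 1.2 and 1.03 in L1-Tg pools and 0.14, 0.40 and 1.53 in WT pools, a ratio of 1.18 (0.625 to 2.22, adjusted p = 0.846). WT pool 3 was again the highest for both genes. Without it the differences of Bmp6 and Id1 were 0.37 and 0.65 in place of 0.16 and 0.23, with limma adjusted p values of no less than 0.349 under any alternative tried.

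Smad7, an inhibitor that BMP signaling induces and that damps SMAD activity and hepcidin transcription, read 0.15, 0.12 and 0.31 in L1-Tg pools and -0.19, -0.24 and 0.07 in WT pools. No WT pool reached the lowest L1-Tg pool, although L1-Tg pool 2 and WT pool 3 were almost level. The means were 0.19 ± 0.10 and -0.12 ± 0.17, a difference of 0.32 (SE 0.12) and a ratio of 1.24 with an interval of 1.02 to 1.52. The unadjusted p in limma was 0.0376, rank 1531 of 22323 genes, and the adjusted p was 0.546. An exact permutation test of the single gene gave p = 0.1, two-sided, the smallest that 3 against 3 pools allow. This pattern, L1-Tg pools all above WT pools, was shared by 7.21% of all genes. The difference stayed above 0 in all 16 alternatives, from 0.25 to 0.42, with adjusted p from 0.287 to 0.935. Those that changed only the filter, the probes of a gene, the test or the replicate block could not move the difference of Smad7, which has a single probe. Smad7 also had the only difference index with a modulus above 0.7, the limit in the study's methods, at 1.14, where the index is the difference of the mean signals over the sum of the SDs, both on the linear scale. That limit was passed by 26.5% of all genes.

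**Figure D2:**
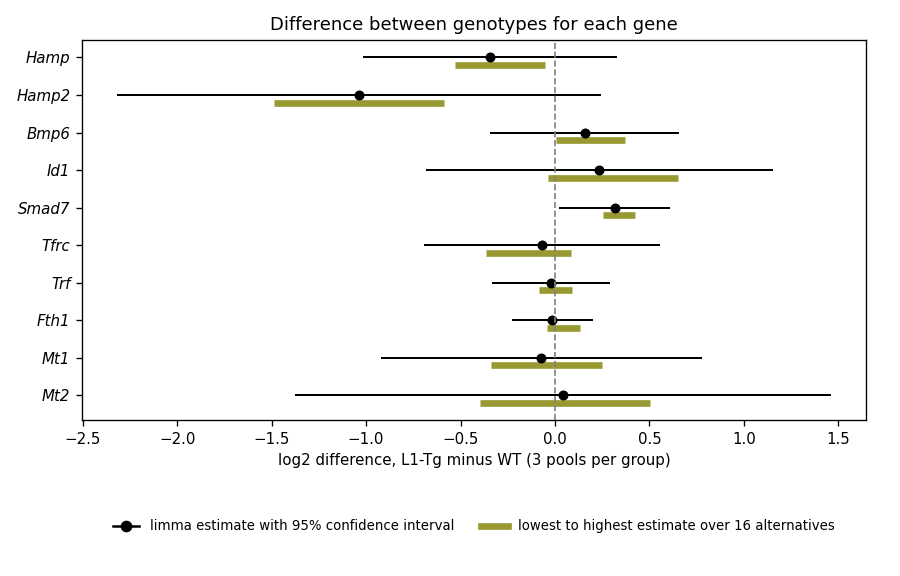
For each gene the point is the log2 difference, L1-Tg minus WT, with its 95% interval from limma (3 pools per genotype), and the bar beneath it runs from the lowest to the highest difference over 16 alternative analyses. The interval of Smad7 alone leaves out 0 before adjustment, and those of Hamp2 and Mt2 are the widest.

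Of the genes of iron transport and storage, Trf and Fth1 had means close to equal, and Tfrc had a wider interval. Trf, the plasma carrier, read 10.12, 10.45 and 10.38 in L1-Tg pools and 10.47, 10.31 and 10.22 in WT pools, with a ratio of 0.986 (0.798 to 1.22, adjusted p = 0.970). Its other probe gave a difference of -0.14 (SE 0.14). Fth1, the ferritin heavy chain, read 9.06, 9.12 and 9.0 in L1-Tg pools and 9.01, 9.09 and 9.12 in WT pools, with a ratio of 0.991 and the narrowest interval of the 10 genes, 0.856 to 1.15. All 6 pools of Fth1 lay within 1.09-fold of each other. Tfrc, the uptake receptor, read 0.30, 0.09 and 0.08 in L1-Tg pools and 0.53, -0.37 and 0.52 in WT pools. The L1-Tg pools lay within the WT range, which WT pool 2 widened downward, and the ratio was 0.955 (0.622 to 1.47, adjusted p = 0.944). This probe was spotted 10 times per array, and 2 further Tfrc probes gave -0.12 (SE 0.23) and -0.38 (SE 0.23), the latter from a dim probe. Without WT pool 2 the difference of the repeated Tfrc probe was -0.37 in place of -0.07 (limma, adjusted p = 0.538). For all 3 genes the sign of the difference changed under at least 1 scaling alternative, so no direction is given for them.

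Mt1 and Mt2 had nearly equal means in both genotypes and wide spreads within each. Mt1 read 8.75, 9.18 and 8.0 in L1-Tg pools and 8.37, 8.54 and 9.22 in WT pools, means of 8.64 ± 0.59 and 8.71 ± 0.45, and a ratio of 0.951 (0.530 to 1.71, adjusted p = 0.957). Mt2 read 7.62, 8.45 and 6.64 in L1-Tg pools and 6.66, 7.47 and 8.45 in WT pools, means of 7.57 ± 0.90 and 7.53 ± 0.89, and a ratio of 1.03 (0.386 to 2.75, adjusted p = 0.988). L1-Tg pool 2 and WT pool 3 were high for both genes, and L1-Tg pool 3 and WT pool 1 were low. The low pools were the highest of the 6 for collagen genes of the stellate cell list, with Col1a1 at 1.61 and 1.29 against -0.03 to 0.20 elsewhere and Col3a1 at 2.14 and 2.0 against 0.56 to 0.87, and for the bile duct keratin Krt7. Other markers of the stellate cell and cholangiocyte lists were mixed. Pdgfrb and Krt19 were also highest in the low pools. Des and Cftr, however, read -3.80 and -3.32 in L1-Tg pool 3, the lowest of the 6, and -2.97 and -1.14 in WT pool 1, the highest. Lrat read -1.04 in WT pool 1, the lowest of the 6, and -0.63 in L1-Tg pool 3, neither the highest nor the lowest. These marker genes are named after their values were seen, and their part in the metallothionein levels was not tested. Between the lowest and the highest pool of one genotype Mt2 differed 3.49-fold in L1-Tg and 3.44-fold in WT mice, and Mt1 2.26-fold and 1.80-fold. The intervals therefore leave room for a difference of 2.75-fold in Mt2.

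The 10 genes differed widely in how much their level varied between pools of one genotype. The SD within genotypes was larger for Mt2 than for 98.4% of the genes tested, for Hamp2 than for 97.8%, for Id1 than for 94.6%, for Mt1 than for 93.4% and for Hamp than for 87.8%. Tfrc and Bmp6 stood at the 85.6 and 76.6 percentiles, Trf and Smad7 below the middle at 44.2 and 38.8, and Fth1 at 3.61. WT pool 3 was the highest of all 6 pools for 5 of the 10 genes, Hamp, Hamp2, Bmp6, Id1 and Mt1, where it was the highest for 15.4% of all genes tested. L1-Tg pool 3 was the lowest for 4 of the 10, against 22.5% of all genes.

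Over the 6 pools the pair Mt1 and Mt2 had the highest Pearson r of 45 pairs among the 10 genes, with r = 0.97 and rho = 0.94 (exact permutation p = 0.00278 and p = 0.0167). None of the 45 pairs passed the Benjamini-Hochberg adjustment, and for this pair the adjusted values were 0.125 and 0.375. The pools had the same order for both genes within each genotype, r was 0.97 for deviations from the genotype means and 0.96 without the 2 pools farthest from the median of Mt1. It ranged from 0.95 to 0.97 under the scaling alternatives. Mt1 and Mt2 were each read by a single probe, and whether these probes share signal from each other's mRNA was not tested. Fth1 followed Mt2 with r = 0.96 and rho = 0.94 (exact permutation p = 0.0139 and p = 0.0167, adjusted 0.229 and 0.375), and r = 0.86 without the 2 farthest pools, but over the narrow range of Fth1 this rested on the scaling, and r was 0.32 after quantile normalization. Hamp and Hamp2 had r = 0.72 and rho = 0.37 (exact permutation p = 0.125 and p = 0.497, adjusted 0.540 and 0.951), and r = 0.23 without the 2 farthest pools. Hamp and Id1 had r = 0.70 and rho = 0.54 (exact permutation p = 0.0931 and p = 0.297, adjusted 0.523 and 0.836), with the same pool order within each genotype and r = 0.94 for deviations from the genotype means, and r turned to -0.56 without the 2 farthest pools. These relations of Hamp with Hamp2 and Id1 rested on WT pool 3, without which r was 0.15 with Hamp2 and 0.30 with Id1. Hamp had slightly higher r with Fth1, Mt1 and Mt2, at 0.77, 0.77 and 0.76. Their exact permutation p values were 0.0611, 0.0583 and 0.0653, each 0.490 after adjustment. Without the 2 farthest pools r was 0.64, 0.24 and 0.24.

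**Figure D3:**
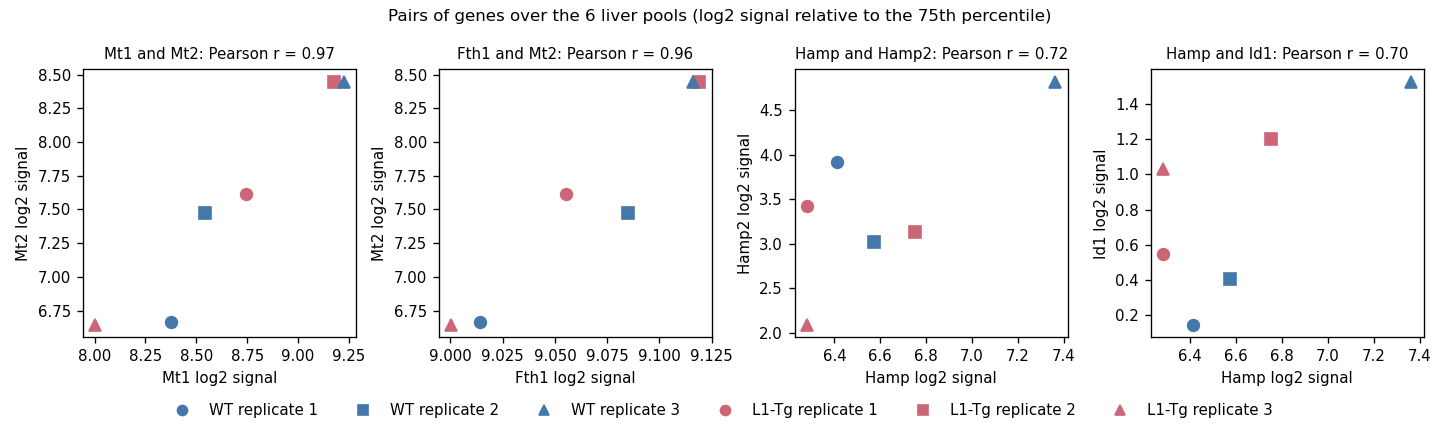
Each panel plots the log2 signals of a pair of genes, relative to the 75th percentile, in the 6 pools (WT blue, L1-Tg red, shapes for replicate numbers). Mt1 and Mt2 lie along a line in both genotypes, Fth1 spans only 9.0 to 9.12, and WT replicate 3 stands apart in both panels of Hamp.

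The other tested genes with the pattern over the 6 arrays most like that of Hamp were Sec16b, Tcn2, Inpp4a, Cask and Dlg3, with Pearson r from 0.984 to 0.992. For Mt1 they were Pidd1, Mysm1, Taco1, Adgrg3 and Rad51d, with r from 0.967 to 0.995. These are the highest values among all tested genes with a symbol over 6 points and are given as a description.

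Of 25 genes that sense iron or set hepcidin 23 were tested and 0 were called by limma, with a smallest adjusted p of 0.501. In this list 3 had an unadjusted p under 0.05 (8.87% of all genes). In 1 gene the L1-Tg pools were all higher and in 7 all lower, together 34.8% of the list beside 15.9% of all genes. Its differences were 8 above (42.9% of all genes) and 15 below 0 with a median of -0.04, next to -0.03 over all genes. Scaling to the array median moved both medians alike, to 0.07 and 0.08, and left 15 differences above and 8 below 0. Il6ra, the IL-6 receptor subunit, read 4.70, 4.72 and 4.89 in L1-Tg pools and 5.22, 4.96 and 5.18 in WT pools, all lower in L1-Tg mice with a difference of -0.35 (SE 0.11, adjusted p = 0.501). Bmp7, a BMP ligand, differed by -0.54 (SE 0.20, adjusted p = 0.533), and Hjv, the hemojuvelin co-receptor for BMPs, by 0.35 (SE 0.13, adjusted p = 0.546). Hjv read 1.79, 1.41 and 1.52 in L1-Tg pools and 1.12, 1.18 and 1.37 in WT pools, without overlap. Tfr2, the transferrin sensor of hepatocytes, and Bmp2, the other main endothelial BMP ligand, are named after their values were seen: both were lower in L1-Tg pools without overlap, by -0.22 (SE 0.10, adjusted p = 0.576) and -0.23 (SE 0.11, adjusted p = 0.600). In bulk liver, fewer cells of a type and less RNA per cell cannot be told apart.

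Of 7 further BMP and SMAD targets 6 were tested and 0 called by limma, with 1 at an unadjusted p under 0.05 (8.87% of all genes). In this list 5 differences were above 0 (42.9% of all genes) and 16.7% were without overlap (15.9% of all genes). The median was 0.20, next to -0.03 over all genes. Id2 and Smad6, an inhibitor of SMAD signaling, differed by 0.23 (SE 0.14, adjusted p = 0.642) and 0.16 (SE 0.11, adjusted p = 0.652), with overlapping pools in Id2 and in Smad6. Nog, an antagonist that binds BMPs, read -0.16, -0.17 and -0.12 in L1-Tg pools and 0.40, 0.68 and -0.04 in WT pools, a difference of -0.49 (SE 0.18, adjusted p = 0.543) without overlap. The median of the list stayed above 0 under every alternative, but leaving out 1 pool moved it to 0.04, with 3 genes above and 3 below 0, without L1-Tg pool 2, to 0.10 without WT pool 1 and to 0.37 without WT pool 3.

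Of 38 genes for iron uptake, storage and export 33 were tested and 0 called, with 7 at an unadjusted p under 0.05 (8.87% of all genes). Their differences were 20 above (42.9% of all genes) and 13 below 0, with 18.2% without overlap (15.9% of all genes) and a median of 0.03. The smallest p was that of Lcn2, a secreted protein that binds iron-carrying siderophores and rises in the acute phase. Lcn2 read 3.67, 3.56 and 3.12 in L1-Tg pools and 0.94, 2.08 and 1.96 in WT pools, a difference of 1.79 (SE 0.33, adjusted p = 0.261). The lowest L1-Tg pool was well above the highest WT pool. Flvcr1, a heme exporter, differed by 0.44 (SE 0.12) and Fbxl5, which targets an iron-regulatory protein for degradation when iron is ample, by 0.43 (SE 0.12), each with an adjusted p of 0.458 and without overlap. Neutrophils also carry Lcn2 protein, and of their 6 tested markers 5 were above 0 (42.9% of all genes) and 0 called. S100a8 and S100a9 differed by 0.99 (SE 0.43, adjusted p = 0.564) and 0.87 (SE 0.44, adjusted p = 0.601), and Cxcr2 was above background on 0 arrays. The summed level of the list, on the linear scale relative to the 75th percentile, ranged from 19.8 to 25.0 in L1-Tg and from 20.7 to 67.2 in WT pools, but was carried by the bright probe of Elane, the only marker below 0, which read 3.95 to 4.27 in L1-Tg pools and 6.01 in WT pool 2. The part of neutrophils in the Lcn2 difference was not tested.

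**Figure D4:**
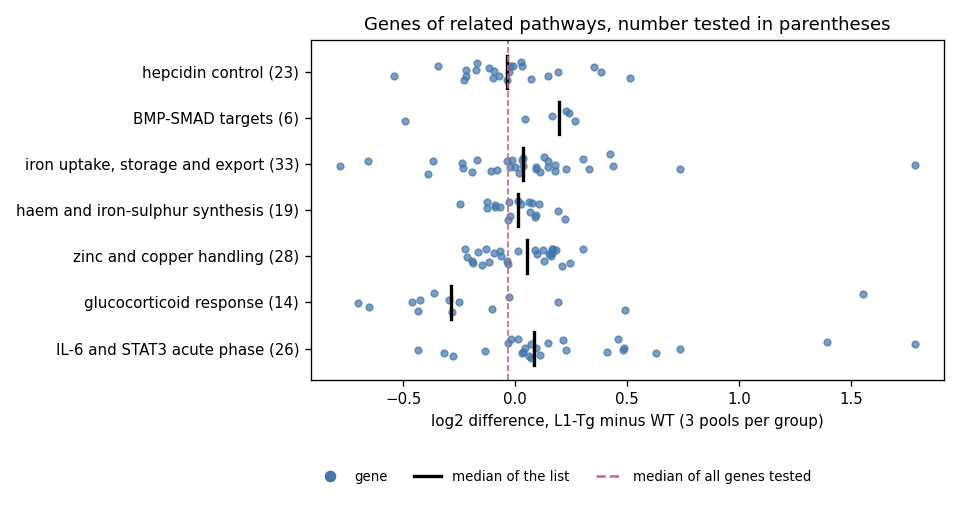
Each point is the log2 difference, L1-Tg minus WT (3 pools per genotype), of 1 gene of the list named on the left, the black mark is the median of the list and the dashed line the median of all genes tested. Most genes lie within 0.5 of 0, Lcn2 at 1.79 stands in both lists that hold it, and the glucocorticoid list has a median of -0.29.

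All 19 enzymes and carriers of heme and iron-sulfur synthesis were tested and 0 called by limma, with 1 at an unadjusted p under 0.05 (8.87% of all genes). Their differences were 10 above 0 (42.9% of all genes), with 21.1% without overlap (15.9% of all genes) and a median of 0.01. Uros and Urod, neighboring steps of heme synthesis, differed by 0.19 (SE 0.14) and -0.13 (SE 0.10). Of 30 genes for zinc and copper 28 were tested and 0 called or at an unadjusted p under 0.05 (8.87% of all genes). Their differences were 15 above 0 (42.9% of all genes), with 14.3% without overlap (15.9% of all genes) and a median of 0.05. The zinc transporters Slc39a13 and Slc39a3 differed by -0.22 (SE 0.10) and -0.19 (SE 0.11), and Atox1, the copper chaperone, by 0.18 (SE 0.09), with adjusted p of 0.583, 0.628 and 0.608. Leaving out 1 pool turned the median of the iron list to -0.01 (WT pool 2), of the heme list to -0.03 (L1-Tg pool 2) and of the zinc list to -0.01 (WT pool 3).

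Glucocorticoid and IL-6 both act on hepcidin or metallothionein genes. All 14 genes of the glucocorticoid response were tested and 0 called by limma, with 7 at an unadjusted p under 0.05 (8.87% of all genes) and 11 differences below 0, 5 of them without overlap, which is 35.7% of the list beside 8.7% of all genes lower without overlap. The median was -0.29 and stayed between -0.46, without WT pool 2, and -0.18, with the array median, under all alternatives. Per1, a clock gene that glucocorticoid induces, read 2.76, 2.62 and 2.93 in L1-Tg pools and 3.36, 3.31 and 3.6 in WT pools, all lower in L1-Tg mice by -0.65 (SE 0.13, adjusted p = 0.289). The time of day at which the livers of each pool were taken is not given in the sources used here. Errfi1, an inhibitor of EGF receptor signaling, and Zbtb16, a zinc-finger transcription factor, were lower without overlap by -0.43 (SE 0.10, adjusted p = 0.379) and -0.42 (SE 0.14, adjusted p = 0.498). Cdkn1a, a cell-cycle inhibitor named after its value was seen, went the other way by 1.56 (SE 0.58, adjusted p = 0.543) with overlapping pools. All 26 genes of the IL-6 and STAT3 acute phase were tested and 0 called by limma, with 3 at an unadjusted p under 0.05 (8.87% of all genes), 20 differences above 0 (42.9% of all genes), 7.69% without overlap (15.9% of all genes) and a median of 0.08. Without L1-Tg pool 2 the list had 14 differences above and 12 below 0 and a median of 0.000806, and leaving out L1-Tg pool 1, L1-Tg pool 3 or WT pool 3 gave 0.17, 0.16 and 0.17. Besides Lcn2, Orm3, an orosomucoid, differed by 1.39 (SE 0.43, adjusted p = 0.482), and Steap4, a metalloreductase, by 0.74 (SE 0.31, adjusted p = 0.561).

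The tissue label was checked against markers of liver cells. Alb, the main hepatocyte product, read 10.63 ± 0.15 in L1-Tg and 10.75 ± 0.09 in WT pools, a difference of -0.11 (SE 0.11, adjusted p = 0.745). The 8 hepatocyte markers had a summed level, on the linear scale relative to the 75th percentile, of 4072 to 5060 in L1-Tg and 4452 to 5033 in WT pools, with a median difference of -0.16. Of these markers 1 was above 0 (42.9% of all genes) and 7 were below, and 0 were called. Without overlap were 12.5% (15.9% of all genes), namely Apoa1, lower by -0.49 (SE 0.18, limma adjusted p = 0.531). With the normexp correction 3 were above and 5 below 0. Of the Kupffer cell markers 9 of 9 tested were above 0 (42.9% of all genes), with a median of 0.32 (-0.03 over all genes). Of these markers 0 were called and 0 were without overlap (15.9% of all genes), and Cd5l led at 0.63 (SE 0.26, adjusted p = 0.561). With Cd5l and Csf1r the brightest, the summed level of the markers was 162 to 190 in L1-Tg and 102 to 188 in WT pools. Without WT pool 1, 7 were above and 2 below 0 with a median of 0.13, and without WT pool 3 the median was 0.65. Endothelial markers, the cells that make Bmp6 and Bmp2, had a median of 0.08 and summed levels of 134 to 141 and 128 to 139, in which Kdr was brightest. Erythroid markers rested on Hba-a1 and Hbb-bt and had summed levels of 172 to 386 in L1-Tg and 169 to 205 in WT pools, with Epb42 and Rhag above background on 0 arrays. The upper end came from L1-Tg pool 2, where Hba-a1 and Hbb-bt read 7.45 and 6.91. In the other L1-Tg pools they read 6.31 to 6.38 and 5.68 to 5.78. Of the 6 erythroid markers tested 5 were above 0 (42.9% of all genes) with a median of 0.28. Without L1-Tg pool 2, 3 were above and 3 below 0 with a median of 0.03. The lymphocyte sum, 88.6 to 106 in L1-Tg and 99.2 to 234 in WT pools, was carried by Cd4 (-0.71, SE 0.33, adjusted p = 0.578), while 5 of the 8 markers tested were above 0 with a median of 0.22. Summed levels in L1-Tg and WT pools were 9.76 to 19.0 and 9.49 to 16.4 for stellate cell markers, carried by Col1a2, and 1.53 to 2.12 and 1.46 to 2.0 for cholangiocyte markers, carried by Spp1. A sum follows its brightest probe and is no measure of cell number. The mouse Npc1l1 probe was well above background on 3 of 6 arrays, from -4.34 to -3.95 in L1-Tg and from -3.84 to -3.48 in WT pools, and does not check the human transgene. The 75th percentile of the arrays ranged from 296 to 378 intensity units, 53.1% to 59.2% of spots passed the background mark, and 0 were saturated.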

How the data were processed

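Liver RNA of 3 L1-Tg and 3 WT pools was labeled with Cy3 and hybridized to 6 Agilent arrays of 62976 spots, 3671 of them controls. The authors processed the scans in Agilent Feature Extraction 10.10.1.1. Their deposited processed signal is a linear intensity, background-subtracted and spatially detrended, with no scaling from array to array. The authors also deposited median and local background intensities, other marks of 0 or 1 per spot for background, saturation and uniformity, and a matrix equal to the processed signals times 1 factor per array, 2.46 to 2.98, whose origin is not given in the sources used here. Its medians were 74.4 to 87.8.

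Non-uniform spots were left out, repeated spots averaged (432 probes), and log2 signals taken minus the 75th percentile of the array. Of 28685 probes with a RefSeq-type name 27235 matched a symbol of the RefSeq annotation. Each gene took its brightest probe over the 6 arrays, and entered the test if that probe passed the background mark on every array of either genotype. The two-sided test was limma 3.58.1 (R 4.3.3; lmFit, then eBayes), adjusted after Benjamini and Hochberg over 22323 genes with a threshold of 0.05, with jsonlite 2.0.0 and version 1.17.8 of data.table. Promoters and figures used Python 3.11.15 with Biopython 1.88, pandas 2.3.3 and matplotlib 3.10.9. The pipeline was tested on simulated data.

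The 10 genes, the gene lists and the tests were chosen with earlier results of these data known. Named are every member, the 3 genes with the smallest p of each list, any list gene called, the genes on which a marker sum rests most, mouse Npc1l1, and the 5 genes most like Hamp and Mt1. A gene that this rule names in the heme list is not reported here. Any marker gene quoted beyond these was picked with its value known. The 16 alternatives changed the scaling, background correction, source of values, filter, probes of a gene, test, replicate block or the pools used. The scaling checks of correlations were chosen after seeing the data. Precision is limited by having 3 arrays per genotype.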

Additional observations from a re-analysis of the deposited data

How the results depend on the processing

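No member passed the adjusted threshold under any of the 16 alternatives. Of 160 differences recomputed for the 10 genes 136 kept their direction, 24 turned, and Hamp, Hamp2, Bmp6 and Smad7 never turned. Some of the 160 could not turn. The alternatives that changed only the filter, the test or the replicate block left every member's difference as it was. Averaging the probes of a gene did the same for genes with a single probe. With quantile normalization Trf was 0.0885, Fth1 0.131 and Mt1 0.0381, and with the array median Tfrc was 0.0421, Trf 0.0891, Fth1 0.0953 and Mt1 0.0365. Without scaling Trf was 0.0361 and Fth1 0.0423, with the normexp correction Fth1 was 0.122 and Mt1 0.0501, and with the deposited normalized intensities Trf was 0.0297 and Fth1 0.0359. Leaving out 1 pool at a time gave Hamp -0.53 to -0.0546, Hamp2 -1.49 to -0.586, Bmp6 0.00534 to 0.372, Id1 -0.0393 to 0.653, Smad7 0.254 to 0.41, Tfrc -0.366 to 0.0857, Trf -0.085 to 0.0785, Fth1 -0.0439 to 0.0155, Mt1 -0.339 to 0.247 and Mt2 -0.398 to 0.505. The number of genes called on the array, 29, was 10 without a filter on dim probes and 0 in the test without moderated variances (1839 at an unadjusted p under 0.05), and 15 to 35 with 1 pool left out: 17 without replicate 1 of either genotype, 15 without L1-Tg replicate 2 or 3 or WT replicate 2, and 35 without WT replicate 3. Members past the difference index went from 1 to between 1 and 3: 2 without L1-Tg replicate 1 or 2 and 3 without WT replicate 2 or 3. The sources used here do not say whether replicate numbers pair the pools. Correlations of deviations between same-numbered pools were -0.16, 0.11 and 0.02 over 22323 genes, which with 3 pools per genotype cannot decide this. With the replicate block 11 genes and 0 members were called. The correlation of Fth1 ranged from 0.32 to 0.91 with Mt2 and from 0.35 to 0.84 with Mt1 over the scaling alternatives. The cause of these changes was not tested. With 3 pools per genotype of 2 or 3 mice each, a pool average hides differences between mice. The single-gene 95% intervals of Hamp, Hamp2, Id1 and Mt2 reach past a 2-fold difference. The size of difference that would have been called was not computed for any of the 10 genes, and Lcn2, with a log2 difference of 1.79, was not called.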
